A study of Danio rerio with 10 samples.

Results

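The change in gene expression from 2 to 5 dpf (days post-fertilization) was measured in zebrafish (Danio rerio) homozygous for a mutation in ebf3a, and it was set beside the change in WT animals. The 4 homozygous libraries, 2 at each age, were chosen by their titles from the 10 libraries of the series, and the 4 WT libraries were used for comparison. The remaining 2 libraries are heterozygous and of 2 dpf. The mutation is a CRISPR/Cas9-induced frameshift made in the AB strain, predicted to truncate the protein, and the WT animals carry no mutant copy. Each library was bulk polyA RNA of a pool of animals, with 15 to 20 animals per pool at 2 dpf and 10 to 12 in the older pools. No source says that the 2 pools of a group came from separate clutches. The p-values thus measure only the spread between pools, estimated over the homozygous and WT groups of both ages together.

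The tissue is labelled as upper body with eyes at 2 dpf and as head with eyes at 5 dpf, while the extraction text names the anterior body for all and a later age than the titles for the older larvae. Age, dissected tissue and pool size changed together in both genotypes, so they cannot be told apart in the change from 2 to 5 dpf. In such bulk samples, fewer cells of a type and less RNA per cell cannot be told apart either. The files name genes by annotation IDs that no table at hand pairs with gene names. The level of ebf3a, markers of the labelled tissues and other named genes were therefore not analysed here, and at most 2 IDs in each direction are given.

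EBF proteins are transcription factors that act in the differentiation of neurons, and Ebf3 orthologs are known from olfactory neurons, cerebellum and hindbrain. Between the 2 ages the zebrafish turns from an embryo close to hatching into a swimming larva. Neurons form synapses, photoreceptors mature, cartilage and muscle of the jaw develop, and the digestive organs become functional, while division of progenitors slows. These processes are background and could not be assigned to the IDs measured.

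Depth, as reads on genes, was 30.1 and 31.4 M (M, mega-reads) in the 2 dpf homozygous libraries and 41.6 and 36.2 M at 5 dpf. The WT libraries held 43.3 and 47.8 M at 2 dpf and 38.4 and 45.9 M at 5 dpf, so the 2 dpf homozygous libraries were the shallowest of the 8. The biological coefficient of variation between replicate pools was 12.9% in 2 dpf homozygotes and 23.6% in 5 dpf homozygotes, against 6.22% and 22.0% in WT. The 5 dpf pools of both genotypes were thus less alike than those of 2 dpf. The tests used a spread estimated over all 4 groups together, with a common value of 18.7%, above that of both 2 dpf groups. The first principal component held 87.5% of the variance and parted the ages, with all 2 dpf libraries at -155.4 to -147.1. At 5 dpf replicate 1 lay lower on it than replicate 2 in both genotypes, at 132.6 and 161.9 in homozygotes and at 147.1 and 162.9 in WT.

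In homozygous mutants most of the measured genes changed with age. Of 24823 genes tested, 15682 (63.2%) had an adjusted p under 0.05 between 5 and 2 dpf, with 8436 (34%) higher and 7246 (29.2%) lower at 5 dpf (quasi-likelihood test of edgeR, p-values adjusted by Benjamini-Hochberg). The increases were larger than the decreases. The median log2 fold change was 1.89 over the genes that rose (quartiles 1.12 and 3) and -1.09 over those that fell (quartiles -0.73 and -1.59). For these sizes, group means of CPM (the usual counts relative to library size, scaled by edgeR's TMM method) were held at or above a floor of 3 counts per library, because 523 of the genes that rose had no read in either 2 dpf library and 137 of those that fell had none at 5 dpf. With the fitted values of such genes in place of this floor, the medians were 1.97 and -1.09. Over all genes tested the median fitted change was 0.13, and with library totals in place of TMM it was 0.31.

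The largest changes were mostly increases. An 8-fold or greater change was reached by 2117 genes that rose, or 25.1% of them, and by 329 genes that fell, or 4.54%. At 32-fold or more, 668 genes were higher and 35 lower, and at 128-fold or more, 188 were higher and 6 lower. The genes that fell were the more abundant ones. Their median level over the 4 homozygous libraries was 27.0 CPM, against 6.25 CPM for the genes that rose. When genes were split into 4 equal groups by this level, 56.8% of the most abundant group (28.2 to 10300 CPM) fell and 22.5% rose. In the next lower group (8.32 to 28.2 CPM), 31.7% fell and 35.8% rose. In the group from 1.59 to 8.32 CPM, 15.4% fell and 47.5% rose, and in the lowest group 12.8% fell and 30.2% rose. Fewer calls are possible at low counts, so the lowest group is not comparable in its total.

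**Figure D1:**
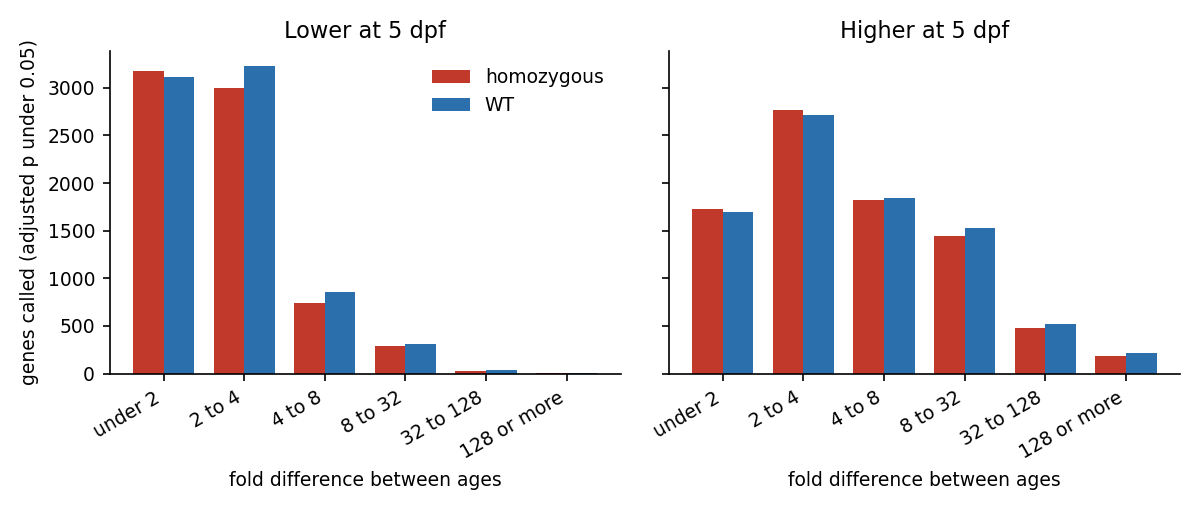
Number of genes called between 5 and 2 dpf (adjusted p under 0.05) by the size of the fold difference, for homozygotes (red) and WT (blue), with genes lower at 5 dpf on the left and higher on the right. In homozygotes 188 genes were at least 128-fold higher and 6 at least 128-fold lower, and the bars of the 2 genotypes have the same shape.

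The genes that rose and fell came to hold similar shares of the reads on genes at 5 dpf. The 8436 genes that rose held 9.09% and 8.93% of the reads in the 2 dpf homozygous libraries and 36.5% and 39.8% at 5 dpf. The 7246 genes that fell held 65.5% and 65.8% at 2 dpf and 34.9% and 32.4% at 5 dpf. These shares describe genes chosen on the same libraries. The WT libraries entered the filter, the scaling and the estimate of spread, but not the change that chose these genes. In WT the rising genes held 9.34% and 9.38% at 2 dpf and 39.3% and 41.9% at 5 dpf. The falling genes went from 65.9% in both WT libraries to 33.3% and 30.9%. The genes that rose 8-fold or more took 0.340% and 0.346% of the reads at 2 dpf and 15.8% and 18.5% at 5 dpf in homozygotes, and 18.1% and 19.5% in 5 dpf WT. Of the 100 most abundant genes of 2 dpf homozygotes, 64 were also among the 100 most abundant at 5 dpf. The TMM-scaled CPM of these 100 genes summed to 28.6% of the nominal CPM total at 2 dpf and 17.7% at 5 dpf. The scaled levels of a library do not sum exactly to that total, so these values are not shares of reads. In WT 61 genes were shared between the ages, while at a given age the 2 genotypes shared 94 (2 dpf) and 93 (5 dpf).

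**Figure D2:**
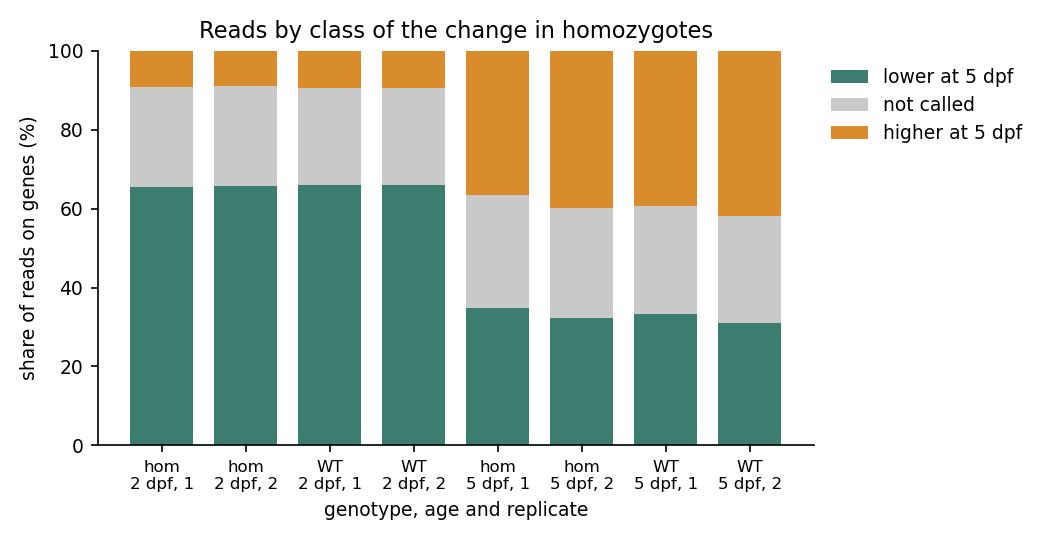
Share of the reads counted on genes, in percent, in each of the 8 libraries, split by whether a gene was lower at 5 dpf, not called or higher at 5 dpf in homozygotes. The rising genes held between 8.93% and 9.38% of reads at 2 dpf and between 36.5% and 41.9% at 5 dpf.

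A set of genes was close to absent at 1 age. In homozygotes, 280 genes were under 0.1 CPM in both 2 dpf libraries and at 1 CPM or more in both 5 dpf libraries, and 43 genes had the opposite pattern. All of them were called in the respective direction, which the choice of levels favours. At 5 dpf the newly detected genes had a median level of 3.76 CPM, 43 of them exceeded 10 CPM and 5 exceeded 100 CPM in both libraries. By the same limits, 337 genes appeared and 53 disappeared in WT. The lists shared 153 appearing genes, 54.6% of the homozygous and 45.4% of the WT list, and 33 disappearing genes, 76.7% and 62.3%. Of the 127 genes that appeared by these limits in homozygotes alone, 109 reached 0.1 CPM in a 2 dpf WT library. This limit corresponds to about 3 reads in the 2 dpf homozygous libraries, so membership at this level rests on few reads.

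The summed level of the 153 genes that appeared in both genotypes was 1.33 and 1.48 CPM in 2 dpf homozygotes, 3.36 and 2.40 CPM in 2 dpf WT, 1830 and 5670 CPM in 5 dpf homozygotes and 2770 and 3940 CPM in 5 dpf WT. At 5 dpf, replicate 1 was the lower library in both genotypes, and the 2 homozygous pools lay on either side of the WT pools. The 33 genes that disappeared in both were at 138 and 188 CPM in 2 dpf homozygotes and at 0.434 and 0.383 CPM at 5 dpf, where WT was at 170 and 175 CPM and then at 0.344 and 0.323 CPM. For these genes the levels of the genotypes overlapped at 2 dpf.

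In homozygotes, genes with strong changes in either direction were uneven between the 5 dpf pools. The size classes rest on the means of these same pools, which can favour uneven genes. Of the 188 genes that rose 128-fold or more, 139 were higher in homozygous replicate 2 than in replicate 1 (73.9%), with a median ratio of 1.5, and 69 differed by more than 2-fold between these pools. Of the genes that rose 2 to 8-fold, 58.7% were higher in replicate 2 and the median ratio was 1.09. In WT, where these classes were not chosen, the median ratio of replicate 2 to replicate 1 at 5 dpf was 1.02 in the 128-fold class. It was also 1.02 in WT for rises of 32 to 128-fold, against 1.45 in homozygotes. For rises of 8 to 32-fold it was 1.11 in WT and 1.27 in homozygotes. For rises of 2 to 8-fold WT had a ratio of 1.1, with 60.2% of genes higher in replicate 2, much as in homozygotes. Among the 294 genes that fell 8 to 32-fold, the ratio was 0.747 in homozygotes and 0.631 in WT, and 119 differed by more than 2-fold between the homozygous pools. Among the 29 genes that fell 32 to 128-fold, the ratio was 0.336 in homozygotes and 0.71 in WT, and 17 differed by more than 2-fold. In the 6 genes that fell further it was 0.432 in homozygotes and 0 in WT. A median of 0 arises where replicate 2 has no read, so ratios of genes that fell this far can rest on few reads. By these medians the strong falls were lower in replicate 2 of 5 dpf, where the strong rises of homozygotes were higher.

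Of all genes that passed the rule for named genes, LL0000022709 rose most. It had 0 reads in both 2 dpf homozygous libraries and 12843 and 55723 reads at 5 dpf, or 293 and 1420 CPM. Both 5 dpf libraries lie far above the 2 dpf libraries, and they differ from each other by more than the difference between the genotype means. The gene was at least 8270-fold higher at 5 dpf, with the 2 dpf level set at 3 counts per library (adjusted p = 7.89e-05, edgeR's quasi-likelihood test). In WT it was also at 0 reads at 2 dpf and at 551 and 1030 CPM at 5 dpf, at least 11100-fold higher (adjusted p = 6.3e-05, edgeR's quasi-likelihood test). The bound is larger in WT because the floor was 0.071 CPM in 2 dpf WT and 0.104 CPM in 2 dpf homozygotes. Mean levels at 5 dpf were 859 CPM in homozygotes and 789 CPM in WT. The levels of the genotypes thus overlapped at both ages.

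LL0000007682 fell most. It was at 23.4 and 24.3 CPM (671 and 707 reads) in 2 dpf homozygotes and had 0 reads in both 5 dpf libraries. It was at least 328-fold lower at 5 dpf by the same floor (adjusted p = 1.16e-06, edgeR's quasi-likelihood test). In WT the gene was at 23.8 and 22.0 CPM at 2 dpf, and 2 reads were found in 1 of the 2 libraries of 5 dpf (adjusted p = 1.04e-06, edgeR's quasi-likelihood test). Its loss with age was thus seen in all 4 pools of 5 dpf.

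Set beside WT, the change in homozygotes was largely kept. In the same fit 16063 genes (64.7%) were called between ages in WT, 8523 (34.3%) higher and 7540 (30.4%) lower at 5 dpf. Of the genes that rose in homozygotes, 7536 (89.3%) also rose in WT, and of those that fell, 6679 (92.2%) also fell. The median fitted log2 fold change of the genes that rose in both was 2.06 in homozygotes and 2.03 in WT, and of those that fell in both -1.09 and -1.17. A further 899 genes that rose and 567 that fell in homozygotes were not called in WT, and 95.3% and 97.2% of these had the same sign there. In the other direction, 987 genes rose and 860 fell in WT without a call in homozygotes, and 97.0% and 95.6% of them had the same sign in homozygotes. A call in 1 genotype alone is not a difference between them, since the difference was tested by itself.

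The share of genes also called in WT grew with the size of the rise in homozygotes. It was 77.8% for rises under 2-fold, 89.6% from 2 to 8-fold, 97.3% from 8 to 32-fold, and all 668 genes above that. Their WT medians were close to those of homozygotes. In the class from 32 to 128-fold the median log2 fold change was 5.79 in homozygotes and 5.82 in WT, and in the class of 128-fold or more it was 7.86 and 8.11. Of the falling genes, 91.0% of those under 2-fold, 93.1% of those from 2 to 8-fold and 92.5% of those from 8 to 32-fold were called in WT, and all 35 genes beyond. Larger changes are more easily called, and 1707 of the 1726 rises under 2-fold had the same sign in WT. From the smallest rises up, 2.95%, 6.01%, 11.8%, 17.5% and 11.2% had an unadjusted p under 0.05 for the difference between changes (edgeR's quasi-likelihood test). For falls the shares were 1.7%, 2.17%, 4.08%, 3.45% and 16.7% (1 of 6 genes), and over all genes 3.79%. The classes were chosen by the homozygous change, which favours such differences. Fitted across all genes tested, the changes of the 2 genotypes had a Pearson correlation of 0.923 and a Spearman correlation of 0.945. This correlation is across genes, which are not replicates, and the 2 changes share no library.

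**Figure D3:**
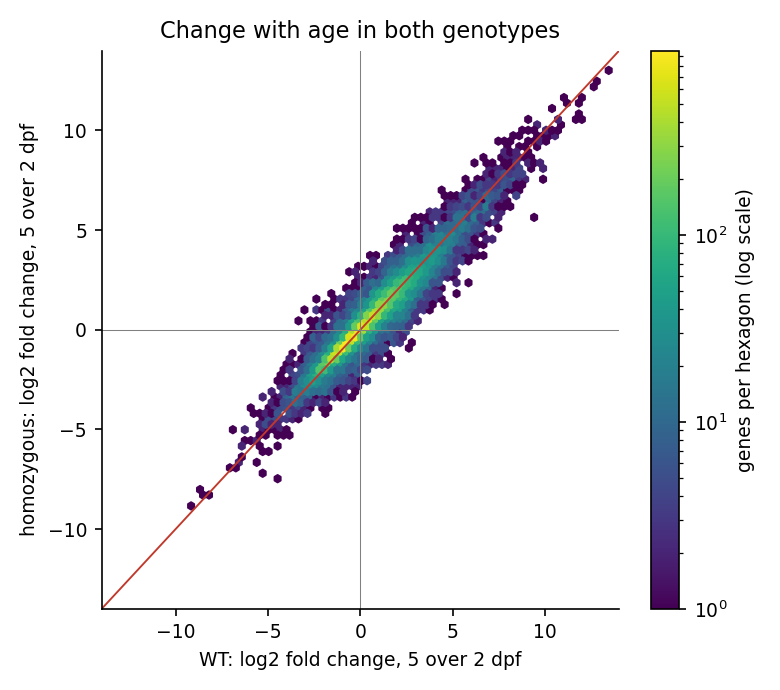
Log2 fold change from 2 to 5 dpf in WT (horizontal) and in homozygotes (vertical) for the 24823 genes tested, with group means held at a floor of 3 counts per library. Colour gives the genes per hexagon on a log scale and the red line marks equal change. The genes lie along the line, and 92.3% of fitted changes had the same sign.

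To compare sizes without favouring a genotype, genes were chosen by the mean of both changes, for which 18663 (75.2%) were called, 10040 (40.4%) higher and 8623 (34.7%) lower. Over these genes the median ratio of the homozygous to the WT change was 0.965, and the change was larger in homozygotes for 44.0% of them. Genes that rose had a ratio of 1.01 and genes that fell 0.928, where the change was larger in homozygotes for 34.9%. Over the 16 ways to take 1 library from each group, the ratio of all chosen genes ranged from 0.877 to 1.05, that of rising genes from 0.943 to 1.07 and that of falling genes from 0.827 to 1.03. All 3 ranges include equal change. Without homozygous replicate 1 of 5 dpf the ratio was 1.02 and without homozygous replicate 2 it was 0.938, on either side of equal change. With the floor of 3 counts in place of fitted values, genes with a mean change over 5 (log2) had a ratio of 0.927 in place of 1.01. The floor was 0.104 CPM in 2 dpf homozygotes and 0.071 CPM in 2 dpf WT because of their depth, which lowers the homozygous ratio for genes near it.

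How much the changes of the 2 genotypes differed depended on which 5 dpf pools were compared. For changes taken from single libraries, the median absolute difference per gene was 0.276 to 0.308 (log2) over the 8 pairings across genotypes whose 5 dpf pools carried the same replicate number. It was 0.34 to 0.408 over the 8 pairings with different numbers, and 0.346 to 0.376 over the 4 pairings within a genotype, which also set replicate 1 against replicate 2 at 5 dpf. Same-numbered 5 dpf pools of the 2 genotypes were thus closer than 2 pools of a genotype, and the deviations of these pools correlated by 0.456 across genes. No source says what the number stands for. The Pearson correlations were 0.891 to 0.929 between and 0.887 to 0.924 within genotypes, and pairings that reuse a library are not independent.

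The libraries were also placed on the WT path, with the mean of the 2 dpf WT libraries at 0% and that of 5 dpf WT at 100%. The 6822 genes that rose and the 4435 that fell by an absolute log2 change over 1 in WT were used, chosen by the WT change in the fit of all 8 libraries, so homozygous libraries entered the filter and the estimate of spread but not the change itself. At 2 dpf the homozygous libraries lay at 0.0% in both replicates for rising genes and at 1.6% and 0.5% for falling genes. Heterozygous libraries of this age lay at 1.0% and 2.1%, and at 0.8% and 2.3%. At 5 dpf homozygous replicate 1 had a median position of 93.2% for rising and 88.3% for falling genes, and replicate 2 of 100.8% and 99.1%. The 5 dpf WT libraries themselves lay at 98% and 102.0% for rising genes and at 94.6% and 105.4% for falling genes. One homozygous pool was thus within the WT pools and the other below both of them in each set of genes, and replicate 1 was the lower pool in both genotypes. The positions depend on the genotype that chose the genes. On the path set by homozygotes, 2 dpf WT lay at 4.5% and 4.7% for rising genes and at 0.6% and 0.4% for falling genes. There 5 dpf WT lay at 99.7% and 103.3%, and at 98.8% and 110.1%.

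**Figure D4:**
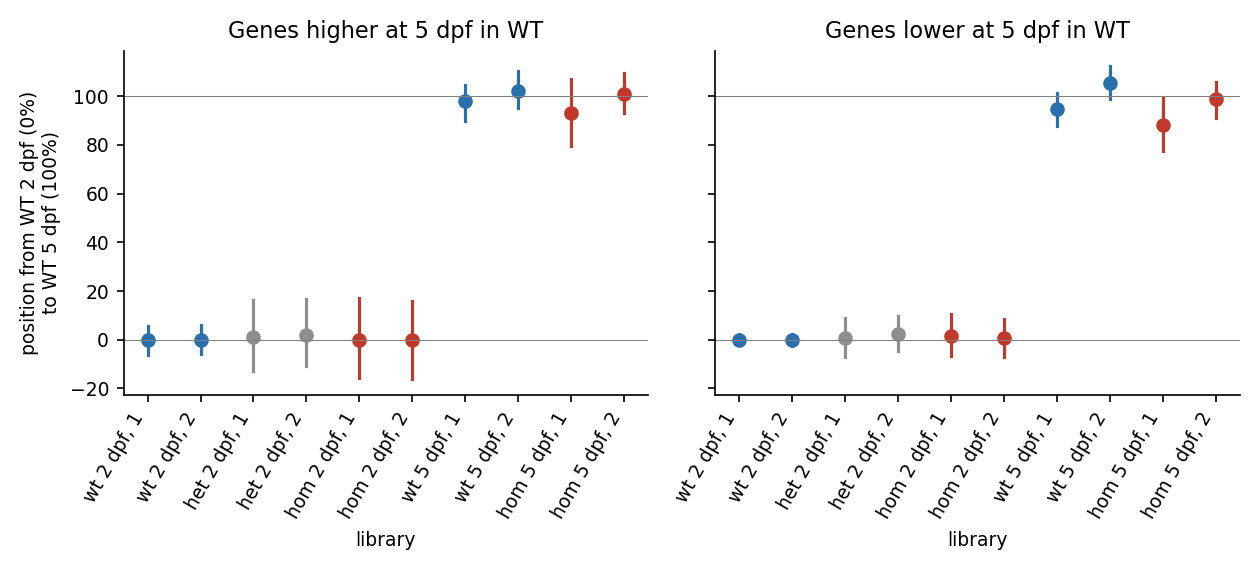
Position of each library between 2 dpf WT (0%) and 5 dpf WT (100%), in percent, for genes higher (left) and lower (right) at 5 dpf in WT, with WT in blue, heterozygotes in grey and homozygotes in red. Points are medians over genes and bars are quartiles over genes, not errors. Homozygous replicate 1 of 5 dpf lies lowest of the 5 dpf libraries, at 93.2% and 88.3%.

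The difference between the 2 changes, tested for each gene as the interaction of genotype and age, was called for 0 of 24823 genes (0%) in edgeR's quasi-likelihood test. Without adjustment, 941 genes (3.79%) had a p under 0.05, where 5% of the genes is 1241. DESeq2's Wald test called 5 genes with 831 at an unadjusted p under 0.05, and limma voom with sample weights called 0 with 805. The unadjusted count exceeded 5% of the genes tested in 3 alternatives. It was 2063 (8.31%, 3 called) with a replicate block within each age, 1658 (6.44%, 0 called) without homozygous replicate 2 of 5 dpf and 1451 (5.63%, 0 called) without WT replicate 1 of 5 dpf. In the reported fit, without a replicate block, no single gene was therefore detectable as reduced or exaggerated in homozygotes. With 2 pools a group this does not show that the changes were alike, and edgeR with a block within each age called 3 genes. The median standard error of the difference was 0.35 (log2) over all genes tested.

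Among the 941 genes, the change was larger in homozygotes for 398 (42.3%), smaller for 402 (42.7%) and opposite in sign for 141 (15.0%). Over all genes tested these shares were 41.5%, 50.8% and 7.68%. For 761 of the 941 (80.9%) the genotypes lay further apart at 2 dpf than at 5 dpf, against 59.8% of all genes tested. Their median absolute log2 difference between genotypes was 0.94 at 2 dpf and 0.25 at 5 dpf. Choosing the 941 genes by their p for the difference, in these same libraries, favours wide gaps at 1 age and changes of opposite sign. At 2 dpf the homozygous libraries are also the shallower ones, and the 5 dpf pools vary more. The part of the choice, of depth and of the unequal spread in these values was not tested. Only 1 gene was called in opposite directions, and it is low: it had 0 and 0 reads in 2 dpf homozygotes, 7 and 11 at 5 dpf, 14 and 14 in 2 dpf WT and 2 and 1 at 5 dpf. Its interaction had an adjusted p of 1 in edgeR's quasi-likelihood test.

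LL0000029349 was the rising gene with the smallest p for the difference. It was at 5.72 and 4.87 CPM in 2 dpf homozygotes and at 25.5 and 24.3 CPM at 5 dpf, while WT went from 8.34 and 8.80 CPM to 14.9 and 13.9 CPM. Homozygotes were thus below WT at 2 dpf and above it at 5 dpf, with no overlap at either age. The gap between genotypes was not called at either age (adjusted p = 0.498 at 2 dpf, edgeR's quasi-likelihood test). Choosing the gene by its p for the difference between changes favours such a crossing. The rise was 2.23 (log2, standard error 0.16, adjusted p = 5.43e-06) in homozygotes and 0.75 (standard error 0.15, adjusted p = 0.00206) in WT, both from edgeR's quasi-likelihood test. The difference of 1.48 (standard error 0.22, unadjusted p = 7.56e-05) did not pass the adjustment in edgeR (adjusted p = 1). In DESeq2's Wald test it did, with an adjusted p of 0.00279, and over the 17 alternatives the adjusted p ranged from 0.00279 to 1.

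LL0000010313 was the falling gene with the smallest p for the difference. It was at 12.4 and 13.5 CPM in 2 dpf homozygotes and at 6.07 and 5.93 CPM at 5 dpf, while WT was at 8.12 and 8.30 CPM and at 7.90 and 8.96 CPM. The level in homozygotes crossed that of WT between the ages, again with no overlap at either age. At neither age was the gap between genotypes called (adjusted p = 0.498 at 2 dpf, edgeR's quasi-likelihood test), and the choice favours a crossing here too. The gene fell by 1.11 on the log2 scale in homozygotes (standard error 0.17, adjusted p = 0.000456, edgeR's quasi-likelihood test), and its change of 0.04 in WT was not called (adjusted p = 0.855, edgeR). The difference of -1.15 (standard error 0.24, unadjusted p = 0.00103) was not called (adjusted p = 1, edgeR), and it was called in none of the 17 alternatives.

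**Figure D5:**
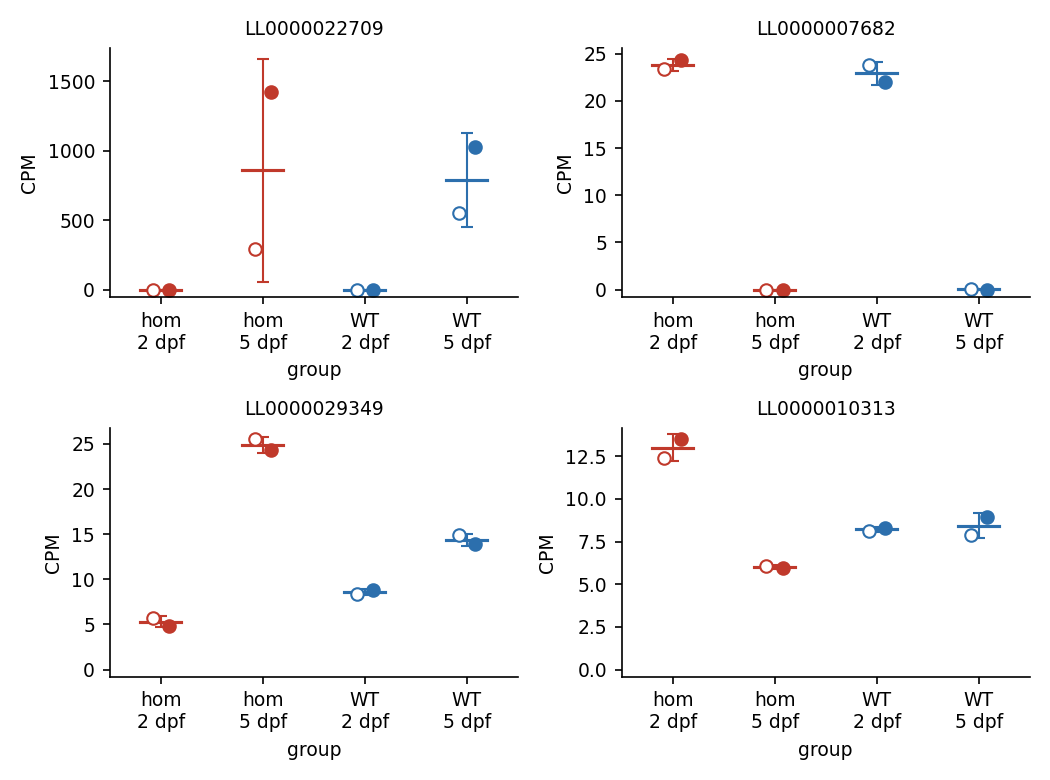
CPM of the 4 named genes in each homozygous (red) and WT (blue) library at 2 and 5 dpf, with replicate 1 as open and replicate 2 as filled points, and lines and bars for the mean and SD (n = 2). LL0000022709 and LL0000007682 moved alike in both genotypes, while the means of LL0000029349 and LL0000010313 changed their order between genotypes from 2 to 5 dpf.

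A stretch of 53 neighbouring gene IDs was found through its higher level in 2 dpf homozygotes. In the fit of all 8 libraries, 0 of 24823 genes were called between homozygotes and WT at 2 dpf (edgeR's quasi-likelihood test). Before adjustment, 1710 genes (6.89%) had a p under 0.05 in this test, where 5% of the genes is 1241. The common spread of that fit, 18.7%, was above the 12.9% of 2 dpf homozygotes and the 6.22% of 2 dpf WT. The lack of calls thus does not show that the genotypes were alike at 2 dpf. The paper describes differentially expressed genes between genotypes at the younger age, with ebf3a among them. It used DESeq2 with its own thresholds, and in part compared homozygotes with WT and heterozygotes combined. Its lists and the calls given here are thus not like for like. The changes and interaction values of the genes in the stretch contain the libraries that chose it, so all of its values are a description. Its summed level was 15371 and 15183 CPM in 2 dpf homozygotes and 12069 and 13789 CPM at 5 dpf. In WT it was 8173 and 8366 CPM at 2 dpf and 15559 and 7779 CPM at 5 dpf, and in 2 dpf heterozygotes 8081 and 11050 CPM. At 5 dpf the homozygous pools lay between the 2 WT pools, which differed by about as much as the genotypes at 2 dpf. Of the 52 tested genes, 15 rose and 12 fell in homozygotes, where 34% and 29.2% of all genes tested did. In WT 26 rose and 3 fell, where 34.3% and 30.4% of all genes tested did. The interaction was called for 0 of them, as for all genes in the reported edgeR fit, and 20 had an unadjusted p under 0.05, which the choice favours. Without WT replicate 2 of 5 dpf, the interaction was called for 17 genes, all with the lower change in homozygotes, and 16 of them lay in this stretch, which the choice favours as well. In that fit 5 dpf WT rested on replicate 1 alone, the pool at 15559 CPM, while the pool left out was at 7779 CPM. Reads shared between near-identical neighbouring genes were not tested.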

How the data were processed

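Bulk RNA-seq libraries of 4 homozygous and 4 WT pools were compared. The authors aligned paired-end reads to GRCz11 with STAR (2.7.3a in the submitters' processing notes, while the paper's methods name another version), using the Lawson Lab annotation. Deposited values are unnormalized read counts for each annotated gene. The strand setting of the counting is not given in the sources used here, so overlapping genes are uncertain.

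Counts were filtered by filterByExpr, scaled by TMM and tested with edgeR 4.0.16 (R 4.3.3) in one fit of 4 groups (8 libraries), by its quasi-likelihood test, with p-values adjusted by Benjamini-Hochberg. Contrasts were the change with age in each genotype, its mean and the difference (interaction). A call means an adjusted p under 0.05, and scripts were tested on simulated data. Standard errors were derived from the log2 change and the F statistic of its quasi-likelihood test. They are unstable for genes with no reads in a group. All replicate pairs differed by more than sampling noise. The members, lists and comparisons were chosen with earlier results of these data known. The rule for named genes took, among genes called in homozygotes that averaged 1 CPM or more and did not overlap between ages, the highest and lowest change and, as the interaction called none, the rising and falling gene with its smallest p. Library-placement used log2 CPM with a prior count of 2. Alternatives included DESeq2 1.42.0, limma 3.58.1 and leaving out each library. Planned lists of named genes and cell type markers were not used, since IDs have no names.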

Additional observations from a re-analysis of the deposited data

How the results depend on the processing

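Calls of the change with age in homozygotes had the same direction for every gene called both in an alternative and in the reported test, and leaving out each library gave 13230 to 15928 genes in homozygotes, 12838 to 16226 in WT and 17288 to 18447 for the mean change. These fits test more genes, because the filter needs fewer libraries, and assume that a lone pool varies like the other groups. A test against a fold change of 2 left 7162 genes in homozygotes (4803 higher) and 7584 in WT, as its stricter threshold implies. Without TMM 60.9% of calls in homozygotes were higher, against 53.8%. The interaction was called for 5 genes by DESeq2, for 3 with a replicate block within each age and for 0 to 17 when a library was left out. The correlation of the 2 changes was 0.94 with limma voom, 0.782 with every gene of at least 1 count, 0.97 with at least 10 counts in every library, 0.953 with the floor of 3 counts (chosen after seeing the data) and 0.866 to 0.899 when a library was left out. The ratio of changes ranged from 0.923 to 1.02 when a library was left out and moved by less than its spread in every alternative. With the replicate number as a block, 16002 genes were called in homozygotes and 0 for the interaction, and within each age 17313 and 3. No source says that numbers mark a shared clutch. Deviations of same-numbered pools correlated by 0.456 between the genotypes at 5 dpf and by -0.0261 to 0.00711 in the other 5 pairs of groups. LL0000022709 was not tested where 10 counts in every library were required, nor was LL0000007682. Depth limits genes near 3 reads in the 2 dpf homozygous libraries.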

Other observations

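The 2 heterozygous libraries of 2 dpf enter the report only through their position on the WT path and through 1 alternative fit to which they were added. For both genes with the smallest p for a difference between the changes, heterozygous levels lay between homozygotes and WT of that age. All 10 libraries were scaled together for this. Both genes were chosen partly on the 2 dpf homozygous and WT libraries, which favours such a place. Its share over all genes was not counted. LL0000029349 was at 6.18 and 5.86 CPM in heterozygotes, against 5.72 and 4.86 CPM in homozygotes and 8.18 and 8.60 CPM in WT. LL0000010313 was at 10.4 and 11.5 CPM in heterozygotes, against 12.4 and 13.5 CPM in homozygotes and 7.96 and 8.11 CPM in WT. LL0000007682 was at 28.0 and 19.0 CPM in heterozygotes, on either side of all other 2 dpf libraries, and LL0000022709 had 0 reads in both. No heterozygous library of 5 dpf was analysed here, so the change with age in heterozygotes has no value.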
